A study of Mus musculus with 8 samples.

Results

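The genes described here encode versican and the proteoglycans, link proteins and tenascins of the perineuronal matrix, with 2 membrane proteoglycans that belong to the same system. They are Vcan, Acan, Ncan, Bcan, Hapln1, Hapln4, Tnr, Tnc, Ptprz1 and Cspg5, taken by symbol from the authors' deposited table, and all 10 were found among its 26229 genes and all 10 among the 18085 that had an adjusted p. Vcan was chosen by its log2 fold change in this same comparison, a rise in the knockout, and the others by their place in the same matrix. The deposited fold changes and p values of the 10 genes are therefore given as a description, and no test was added to them. RNA was sequenced from mouse primary cortical neurons isolated at E16.5 and cultured for 12 days, as 4 libraries of wild-type (WT) neurons and 4 of neurons with the genotype H2BE-KO/mCherry-KI, that is, a knockout of the histone variant H2BE that carries an mCherry knock-in. Each library is a biological replicate per its title, and the labels do not say whether that means a separate embryo, litter or culture. The sources used here do not give strain, sex or the part of the gene that mCherry replaced.

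The perineuronal matrix is a hyaluronan-based coat that condenses around some neurons, above all parvalbumin interneurons, as circuits mature. Lecticans (versican, aggrecan, neurocan and brevican) bind hyaluronan at one end and tenascin-R at the other, link proteins of the Hapln family lock the lectican to hyaluronan, and chondroitin sulfate chains on the core proteins carry most of the charge. Versican and neurocan are known as components of the young brain's loose matrix, and aggrecan with link protein as components of the condensed net.

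The direction of every value was read from the targeted gene. The header of the authors' deposited table names no direction, and H2bc21, the gene of H2BE, was taken to be lower in the knockout. In the authors' deposited table it then stood at 9.12% of the wild-type level (log2 -3.45, SE 0.19). If the direction were the opposite, every rise and fall here would swap. The table gives 1 mean normalized count per gene over all 8 libraries and no value per library. Group levels below were therefore worked out from that mean and the fold change, on the assumption that the fold change is the ratio of the mean levels of 2 groups of equal size, and they are called implied levels. The spread between replicates enters through the standard error (SE) of each log2 fold change. It is also given as the implied coefficient of variation (CV), which is the spread between libraries of 1 genotype that the SE corresponds to after counting noise is removed. A gene was called when the deposited adjusted p was under 0.05, which held for 3948 of the tested genes, or 21.8%. By direction, 11.0% of the tested genes were called higher in the knockout and 10.9% lower. Fewer cells of a type and less RNA per cell cannot be told apart in such bulk libraries.

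Vcan and Acan, which encode lecticans that both bind hyaluronan, stood furthest from 0 in opposite directions among the 10 genes. The stretches of 250 bases just upstream of their annotated starts are therefore shown together, 5′ to 3′ on the strand of the gene. They are from RefSeq on GRCm38.p6, at chr13:89742513-89742762 on the minus strand for Vcan and chr7:79052976-79053225 on the plus strand for Acan. Capitals mark the GC box GGGCGG and the CCAAT box CCAAT, each searched on both strands.
Vcan: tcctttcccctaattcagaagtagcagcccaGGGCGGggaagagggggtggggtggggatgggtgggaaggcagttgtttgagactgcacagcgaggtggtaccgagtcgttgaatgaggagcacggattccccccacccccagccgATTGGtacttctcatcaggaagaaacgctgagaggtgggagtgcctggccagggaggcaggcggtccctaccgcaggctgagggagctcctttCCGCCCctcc
Acan: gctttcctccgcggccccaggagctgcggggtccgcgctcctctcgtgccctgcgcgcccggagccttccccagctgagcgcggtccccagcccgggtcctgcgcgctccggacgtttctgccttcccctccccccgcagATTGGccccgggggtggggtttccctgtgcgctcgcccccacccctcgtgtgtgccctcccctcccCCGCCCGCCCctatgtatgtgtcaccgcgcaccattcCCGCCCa
The Vcan stretch held 2 GC boxes and 1 CCAAT box, and the Acan stretch held 3 GC boxes, of which a pair overlap, and 1 CCAAT box. Of all 32851 promoters in the same table, 32.7% held the GC box and 33.8% the CCAAT box in their own 250 upstream bases. The TATA box TATAAA (12.4% of promoters), the CRE core TGACG (17.8%) and the AP-1 site TGANTCA (6.75%) were not found in either stretch. The E box CANNTG, held by 66.2% of promoters, was found at 1 place in each stretch and is not capitalized. The Acan stretch was 74.4% G or C with 26 CpG pairs, more than 90.4% of promoters had, and the Vcan stretch was 62.4% G or C with 10, more than 62.2% had. A promoter was listed for 8 of the 10 genes. A match of letters is a description of the sequence and no evidence of binding.

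Versican, a large chondroitin sulfate proteoglycan of loose, young matrix, was higher in the knockout. Vcan lies on the minus strand of chromosome 13 from 89655312 to 89742509 in GRCm38. Its mean normalized count was 3154, and the implied level was 1314 in wild type and 4995 in the knockout, 3.80-fold higher (95% interval 2.91 to 4.96). On the log2 scale the authors' deposited table gave it 1.93 (SE 0.20, adjusted p = 2.25e-19), the 6th smallest p of all tested genes. Its implied CV between libraries was 19.1%, against a median of 12.1% for the 1306 tested genes whose mean count lay within 25% of its own. The annotation holds 9 Vcan transcripts. Of these, 4 differ in 2 large exons that encode the stretches carrying chondroitin sulfate, with 2880 and 5217 coding bases: Vcan-203 has both, Vcan-202 has the shorter, Vcan-206 the longer and Vcan-201 neither. The other 5 are 4 short coding forms, of 294 to 1104 coding bases, and 1 retained intron. The table counts the gene as a whole, so the level of each form was not measured here.

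Aggrecan, the lectican of condensed nets, was the gene with the largest fold change of the 10, and it fell. Acan runs from 79053483 to 79115099 on chromosome 7, plus strand. The implied level was 14267 normalized counts in wild type and 1445 in the knockout, or 10.1% of wild type (95% interval of the fold 0.0378 to 0.272). By the authors' deposited table this was -3.30 on the log2 scale (SE 0.73, adjusted p = 1.08e-04). That error was large for so abundant a gene. The implied CV was 71.2% against a median of 11.9% in the 667 genes of like mean count, and 99.9% of those genes had a smaller SE. An SE of that size means that Acan differed widely between libraries within at least 1 genotype, and which libraries did so cannot be read from the table.

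Neurocan, a lectican made by neurons and glia, rose by a small and precise amount. The Ncan level was the highest of the 10 genes per kilobase of exon, with an implied 13886 counts in wild type and 19091 in the knockout. In the authors' deposited table this was 0.46 on the log2 scale (SE 0.09, adjusted p = 4.31e-06), or 1.37-fold (95% interval 1.22 to 1.55). Its implied CV of 8.45% was the lowest of the 10. Brevican, a lectican of the mature brain made largely by glia, had a mean count of 254. Its log2 fold change was 1.02 (SE 0.47) in the authors' deposited table, and it was not called (adjusted p = 0.104). The implied Bcan level was 168 in wild type and 340 in the knockout, and the 95% interval of the fold, 1.07 to 3.84, is not adjusted for the number of genes tested.

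**Figure D1:**
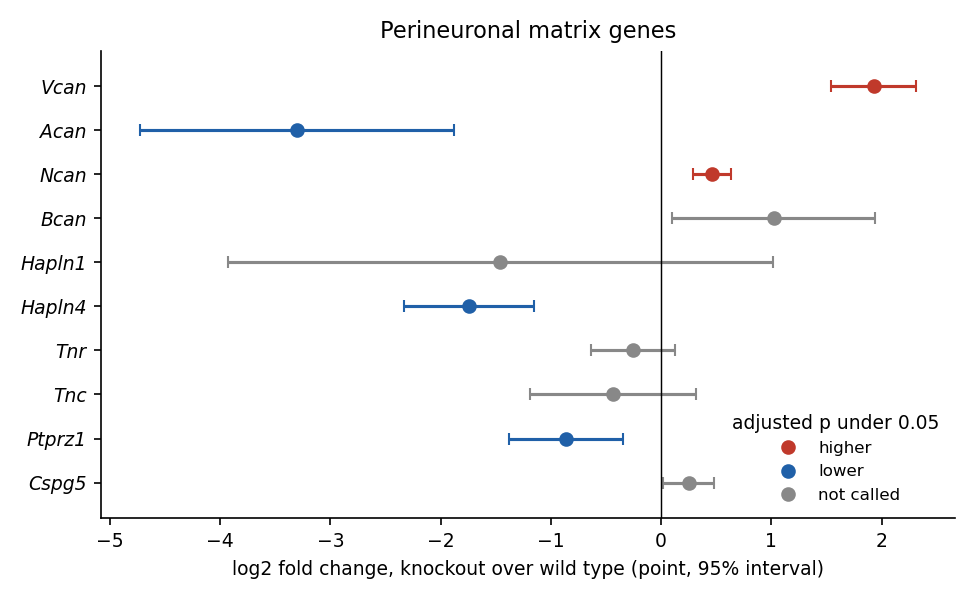
Log2 fold change of each of the 10 genes, knockout over wild type, as a point with its 95% interval (horizontal axis, log2 scale), coloured by the deposited adjusted p. Vcan (1.93) and Ncan (0.46) were called higher, Acan (-3.30), Hapln4 (-1.74) and Ptprz1 (-0.86) lower, and the interval of Hapln1 is the widest.

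The lectican mix differed between the genotypes. Levels were divided by kilobases of exon, a rough scale for comparing different genes. The length counts all annotated exons of a gene, for Vcan 14462 bases, including the large exons that some forms lack. The forms were not measured, and if shorter ones prevailed, the Vcan values per kilobase would be too low. On this scale wild-type neurons had implied levels of 1930 for Ncan, 1910 for Acan, 90.8 for Vcan and 41.3 for Bcan. In the knockout the order was Ncan at 2653, Vcan at 345, Acan at 194 and Bcan at 83.8. Vcan was thus 0.0476 times Acan per kilobase in wild type and 1.78 times Acan in the knockout. As a share of the 4 lecticans per kilobase, Acan made up 48.1% in wild type and 5.91% in the knockout, Ncan 48.6% and 81.0%, Vcan 2.29% and 10.5%, and Bcan 1.04% and 2.56%. The sum of the 4 implied levels without regard to length was 29634 counts in wild type and 25872 in the knockout. These shares carry the errors of the single genes, of which that of Acan is the largest, and were not tested.

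**Figure D2:**
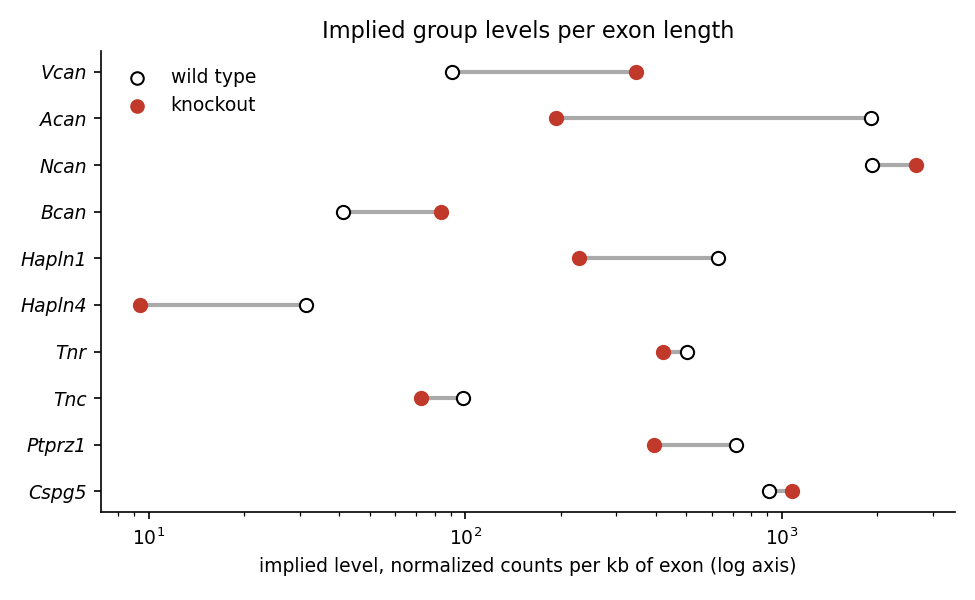
Implied level of each gene in normalized counts per kilobase of exon (horizontal log axis) in wild type (open circles) and knockout (red circles), joined by a line. Acan drops from 1910 to 194 while Vcan climbs from 90.8 to 345, so that the pair changes order; no error is drawn, since the table gives none per genotype.

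Among the link proteins, which fasten lecticans to hyaluronan, Hapln4 fell. Hapln4 is the form also known as Bral2, and its implied level was 123 counts in wild type and 36.9 in the knockout. The authors' deposited table gave -1.74 on the log2 scale (SE 0.30, adjusted p = 4.33e-07), or 29.8% of wild type (95% interval of the fold 0.198 to 0.450). Its implied CV of 26.5% lay under the median of 31.1% for the 645 genes of like mean count. At 20.4 counts per kilobase on average it was also the least abundant of the 10 genes.

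Hapln1, the cartilage link protein gene and the most abundant link protein here, was not called. Its implied level was 3703 in wild type and 1347 in the knockout. The log2 fold change in the authors' deposited table was -1.46 with an SE of 1.26 (adjusted p = 0.449), so the 95% interval of the fold ran from 0.0655 to 2.02 and held both a large loss and a gain. The implied CV was 124%, and 99.9% of the 1417 genes of like mean count had a smaller SE. Its mean count was 2525, and the median implied CV of those genes was 12.1%. Hapln2 and Hapln3 were near the detection limit, with mean counts of 7.47 and 4.84 and log2 fold changes of 0.28 (SE 0.68) and 0.33 (SE 0.97). By DESeq2, 0 of these 3 link proteins (Hapln1, Hapln2 and Hapln3) passed, and 0 had an unadjusted p under 0.05.

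**Figure D3:**
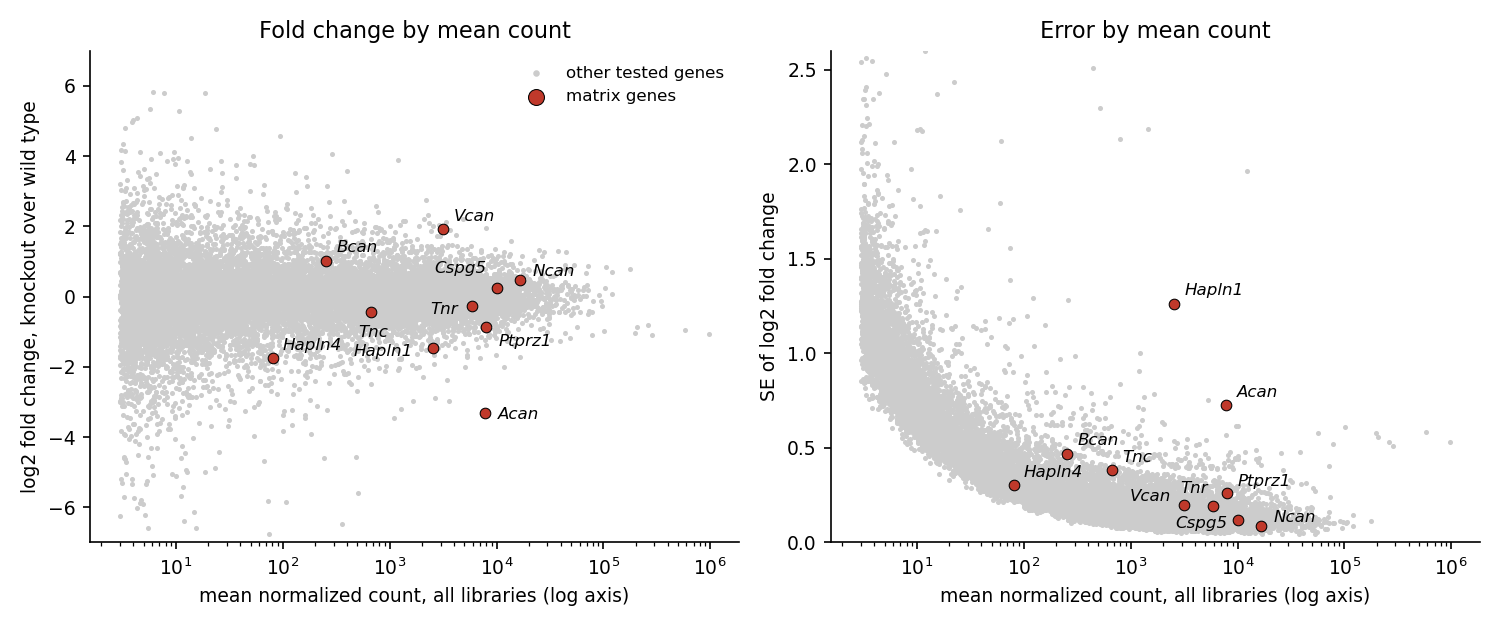
Log2 fold change, knockout over wild type (left), and its SE (right) against the mean normalized count over all libraries (log axis) for all tested genes (grey) and the 10 matrix genes (red). Hapln1 (SE 1.26) and Acan (SE 0.73) lie far above the cloud of genes of like count, and 3 genes on the left and 5 on the right fall outside the axes.

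Each lectican gene lies next to a link protein gene in the mouse genome, and in the 1 pair of which both genes were called they went in opposite directions. Ncan and Hapln4 lie on chromosome 8, 2.22 kb apart with their ends facing each other (Ncan from 70093085 to 70120873 on the minus strand, Hapln4 from 70083457 to 70090862 on the plus strand), and Ncan rose while Hapln4 fell. Vcan and Hapln1 lie 43.7 kb apart on chromosome 13, at log2 fold changes of 1.93 and -1.46. Acan and Hapln3 are 0.002 kb apart on chromosome 7, at -3.30 and 0.33, and Bcan and Hapln2 are 21.5 kb apart on chromosome 3, at 1.02 and 0.28. No other protein-coding gene is annotated between the genes of any of the 4 pairs. Of the 5 tested genes within 0.5 Mb of Vcan (Hapln1, Edil3, Xrcc4, Tmem167 and Gm8546), 0 were called by DESeq2 and 0 had an unadjusted p under 0.05. Within 0.5 Mb of the 4 lecticans, 20 of 97 tested neighbours were called, or 20.6%, close to the 21.8% of all tested genes. A gene beside Acan on the opposite strand, Gm26633, was singled out after its value was seen. It lies on the minus strand of chromosome 7 from 79018053 to 79053323, 0.16 kb short of Acan as placed above. The Acan upstream stretch shown above, which was taken from a RefSeq start, falls within Gm26633. Gm26633 fell to -1.85 (SE 0.55, adjusted p = 0.00632) in the authors' deposited table, with 75.9 as its mean count. The sources used here do not say whether reads were counted by strand.

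Tenascins are large glycoproteins that crosslink lecticans. Tnr, the gene of tenascin-R, which binds the lectican ends that face away from hyaluronan, had implied levels of 6458 in wild type and 5408 in the knockout. The authors' deposited table placed it at -0.26 (SE 0.19, adjusted p = 0.37), and the 95% interval of the fold was 0.644 to 1.09. Tnc, the gene of tenascin-C, known from radial glia and astrocytes, was at -0.44 (SE 0.38, adjusted p = 0.456) in the authors' deposited table, with implied levels of 766 and 565. A fold between 0.439 and 1.24 remains within its interval. The third member of the family tested, Tnxb, was at 1.83 (SE 0.74, adjusted p = 0.0565) with a mean count of 13.3 and was not called, and Tnn, with a mean count of 130, fell to -1.40 (SE 0.46, adjusted p = 0.0140).

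Of the 2 membrane proteoglycans, Ptprz1 fell and Cspg5 was not called, and the difference between them was not tested. Ptprz1 encodes a receptor tyrosine phosphatase that carries chondroitin sulfate and whose secreted form is phosphacan, a ligand of tenascins. It fell from an implied 10234 counts in wild type to 5636 in the knockout, 55.1% of wild type, with -0.86 (SE 0.26, adjusted p = 0.00836) in the authors' deposited table. Its implied CV was 25.8%, larger than the median of 12.0% for the 652 genes of like count. Cspg5, the gene of neuroglycan C, a transmembrane proteoglycan of neurons, had implied levels of 9148 and 10890. The authors' deposited table gave 0.25 (SE 0.12, adjusted p = 0.113), with the fold between 1.01 and 1.40 before any adjustment for the number of genes.

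In all, 5 of the 10 genes were called, 2 higher and 3 lower, beside 21.8% of all tested genes and 28.8% of the 11537 with a mean count of at least 100. Since the members were picked with this comparison known, nothing is read from that share. The median log2 fold change of the 10 was -0.35, against -0.02 over all tested genes, and the median size regardless of sign was 0.94 against 0.33. Of the 10 genes, 9 had a mean count of at least 100, Hapln4 being the exception.

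The genes that build, modify, bind and cut this matrix were taken as lists by role. Without the 10 genes above, 180 of the 192 symbols on these lists were tested, and 30 were higher, 29 lower and the rest not called. That is 32.8% called, against 21.8% of all tested genes, with a median log2 fold change of -0.05. Among the 128 with a mean count of at least 100 the share was 42.2%, against 28.8% of all genes at that count. These lists were chosen with earlier results of these data known, so nothing is read from either share or from the shares of single lists below.

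Enzymes that start and extend chondroitin chains held 3 higher and 1 lower of 16 tested, with a median of 0.12. B3gat1, which encodes a glucuronyltransferase known for the HNK-1 carbohydrate, rose to 0.94 in the authors' deposited table (SE 0.11, adjusted p = 6.16e-15). Csgalnact1, whose product adds the first N-acetylgalactosamine and so commits the chain to chondroitin, rose 3.01-fold (log2 1.59, SE 0.25). Chsy1, a chondroitin synthase gene, rose to 0.41 (SE 0.15). Xylt2, a xylosyltransferase gene whose product starts all such chains on serine, fell to -1.37 (SE 0.22), 38.6% of wild type, while the related Xylt1 was at 0.73 (SE 0.31) and not called. Of 15 genes of chain sulfation and epimerisation, 13.3% were called, under the 21.8% of all tested genes. Papss1, which makes the sulfate donor, rose to 0.47 (SE 0.09). Chst11, which sulfates position 4 of the galactosamine, fell to -0.85 (SE 0.17), and the other 13 were not called. Chst3, whose product sulfates position 6, was not called at -0.73 (SE 0.49).

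Genes for the lysosomal breakdown of such chains had more calls lower than higher. Of 11 tested, 5 fell and 0 rose by DESeq2 at the adjusted threshold. That is 45.5% called, against 21.8% of all tested genes (10.9% lower and 11.0% higher). By DESeq2, 7 lower and 1 higher had an unadjusted p under 0.05, a threshold for which no share of all genes is given. The median was -0.36. Among those that fell were Glb1 (-0.52, SE 0.10), Hexa (-0.54, SE 0.11), Gusb (-0.78, SE 0.22) and the sulfatase-activating gene Sumf1 (-0.31, SE 0.10). The enzymes of Glb1, Hexa and Gusb also act on other glycans.

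Matrix proteases, of which only some cut lecticans, and protease inhibitors were called in 13 of 28 cases. That is 46.4%, against 21.8% of all tested genes. Of the 13, 7 were higher and 6 lower, and the median of the list was -0.06. By the smallest adjusted p in the authors' deposited table, they were led by Adamts5 (-2.45, SE 0.36), Adamts15 (-1.67, SE 0.30), Mmp17 (0.78, SE 0.14), Adamts2 (2.37, SE 0.48) and Mmp24 (0.38, SE 0.08). Adamts5 and Adamts15 encode lectican-cleaving enzymes, and Adamts2 encodes an enzyme that trims procollagen. Other lectican-cleaving members of the family were named after their values were seen. Adamts1 was at -1.71 (SE 0.45) and Adamts8 at -1.96 (SE 0.45), both lower, and Adamts4 at 1.76 (SE 0.47) and Adamts20 at 0.91 (SE 0.29), both higher. Adamts9 was at 0.46 (SE 0.46) and not called. By implied level, Adamts1 was the most abundant of these, with 8179 counts in wild type and 2492 in the knockout, whereas Adamts4 had 45.4 and 154.

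**Figure D4:**
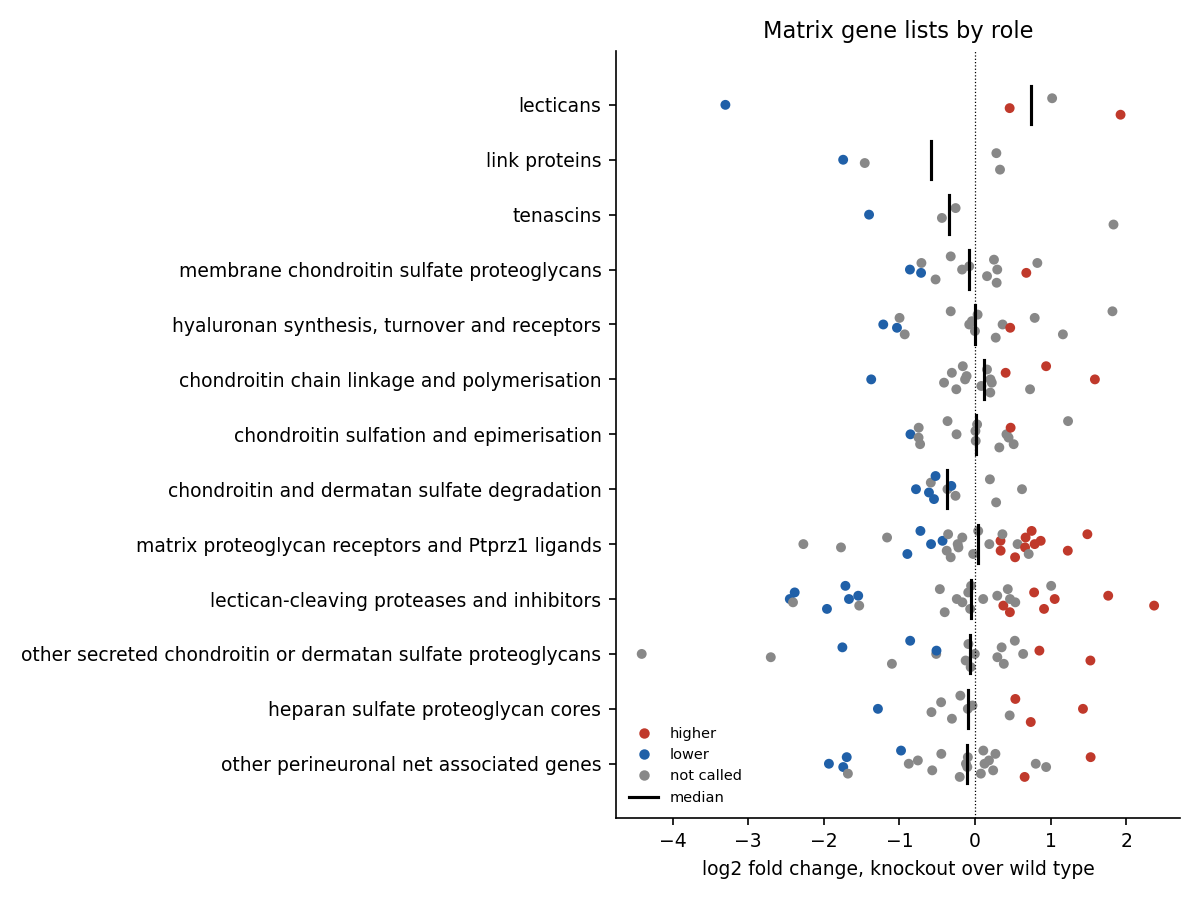
Log2 fold change, knockout over wild type (horizontal axis), of each tested gene on the matrix lists, 1 list per row, with red for called higher, blue for called lower, grey for not called and a black bar for the median of the list. The protease list spreads from -2.45 to 2.37, whereas the list of chain degradation has its 5 calls below 0.

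Receptors for matrix proteoglycans and partners of Ptprz1 held 14 calls among 29 tested genes, 10 of them higher and 4 lower, and had a median of 0.04. That is 48.3% called, against 21.8% of all tested genes. Lingo1, a co-receptor gene of the Nogo receptor complex, rose to 0.87 (SE 0.14), Cntn6, a contactin gene, to 1.23 (SE 0.25) and Tnfrsf19 to 0.79 (SE 0.18), per the authors' deposited table. Scn2b, a sodium channel beta subunit gene, fell to -0.72 (SE 0.13). Ptprs, the gene of the phosphatase that binds chondroitin sulfate, was at 0.19 (SE 0.10) and not called. The Ptprz1 ligand genes Ptn (-0.36, SE 0.28) and Mdk (0.56, SE 0.57) were also not called.

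Hyaluronan genes gave 1 higher and 2 lower of 15, or 20.0% called, close to the 21.8% of all tested genes. Cemip, whose product degrades hyaluronan, fell to -1.03 (SE 0.26), Stab2, a hyaluronan scavenger receptor gene, to -1.21 (SE 0.38), and Cemip2 rose to 0.47 (SE 0.13). Has3, the most abundant of the hyaluronan synthase genes tested, was at 0.37 (SE 0.21) and not called, and Has2 had a mean count of 6.11. Of 13 membrane proteoglycans of this class, Sdc1 rose (0.68, SE 0.16), and Nrp1 (-0.71, SE 0.18) and Ptprz1 fell. That is 23.1% called, also close to the share of all tested genes. Other secreted chondroitin or dermatan sulfate proteoglycans had 5 calls among 18 genes, or 27.8%. They were the higher Dcn (1.53, SE 0.59) and Smoc1 (0.85, SE 0.29) and the lower Bgn (-1.75, SE 0.47), Spock1 (-0.51, SE 0.12) and Spock3 (-0.86, SE 0.31). Heparan sulfate proteoglycan cores gave 3 higher, Sdc3 (0.74, SE 0.12), Gpc2 (1.43, SE 0.33) and Agrn (0.53, SE 0.13), and 1 lower, Gpc3 (-1.28, SE 0.26), of 11. The share called was 36.4%. Of 23 other genes reported around perineuronal nets, 26.1% were called. Among them, 2 rose, Fbln1 (1.53, SE 0.32) and Sparcl1 (0.66, SE 0.21), and 4 fell. The 4 were Crtac1 (-1.74, SE 0.21), a secreted cartilage protein gene, Nptx2 (-1.93, SE 0.50), the gene of a synaptic pentraxin, Lgi1 (-0.98, SE 0.18) and Phf21b (-1.70, SE 0.29), a PHD finger gene. All of these values are those of the authors' deposited table.

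Markers of the cells that make or wear this matrix differed between the genotypes too, and their part in the results above was not tested. For scale, 11.0% of all tested genes were called higher and 10.9% lower. The marker lists were also chosen with earlier results of these data known. Markers of GABAergic and parvalbumin interneurons were below 0 in all 16 tested cases, with 9 lower and a median log2 fold change of -0.99. Nets surround above all the parvalbumin cells, and the list is not specific to those. The summed implied level of these markers was 125704 counts in wild type and 66868 in the knockout. Npy (-2.89, SE 0.41), Lhx6 (-1.26, SE 0.27), Gad1 (-1.02, SE 0.29), Kcnc1 (-0.62, SE 0.18) and Slc32a1 (-1.32, SE 0.40) had the smallest adjusted p of them in the authors' deposited table. Pvalb itself was scarce, at a mean count of 10.3 and -2.15 (SE 0.66). For comparison, the fold change of Acan was -3.30. Markers of immature neurons were higher in 9 of 12 cases, with a median of 1.05 and sums of 128591 in wild type and 240550 in the knockout, led by Tbr1 (1.90, SE 0.28), Dcx (1.32, SE 0.21), Stmn1 (1.14, SE 0.18), Tubb2b (0.88, SE 0.16) and Neurod2 (1.12, SE 0.21). Of 14 markers of neurons in general, 5 were higher and 2 lower, and their sums were 375538 and 398847.

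As lists, glial and other non-neuronal markers had lower summed levels than neuron markers, although the astrocyte marker Slc1a2 alone had a mean count of 13490. Astrocyte markers gave 3 higher of 17 (Slc1a2, Glul and Aldoc), with a median of 0.93 and sums of 22102 and 37054. Radial glia and progenitor markers gave 2 higher (Hes1 and Eomes) and 1 lower (Neurog2) of 14, with sums of 3799 and 3705. Their median was 0.45, with 9 above 0 and 5 below, so that median and sum went in opposite directions. Oligodendrocyte lineage markers gave 2 higher (Mog and Cnp) and 1 lower (Lhfpl3) of 10, with sums of 4560 and 3897. Here too the median, 0.39, went the other way, with 7 above 0 and 3 below. Lhfpl3, the most abundant of that list, had implied levels of 2659 in wild type and 1574 in the knockout. Of the defining precursor markers, Pdgfra had a mean count of 35.2 and Cspg4 of 55.6, neither was called, and Sox10 and Gpr17 were too low to be tested. Microglia markers gave 5 lower of 10, with sums of 1306 and 582, and endothelial, mural and fibroblast markers 5 lower and 1 higher (Dcn) of 13, with sums of 4010 and 3203. Neuron markers had a median mean count of 15999 against 316 for astrocyte markers, 108 for oligodendrocyte lineage markers and 16.6 for microglia markers, so that of these lists the markers of the labelled cell type had the highest median.

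**Figure D5:**
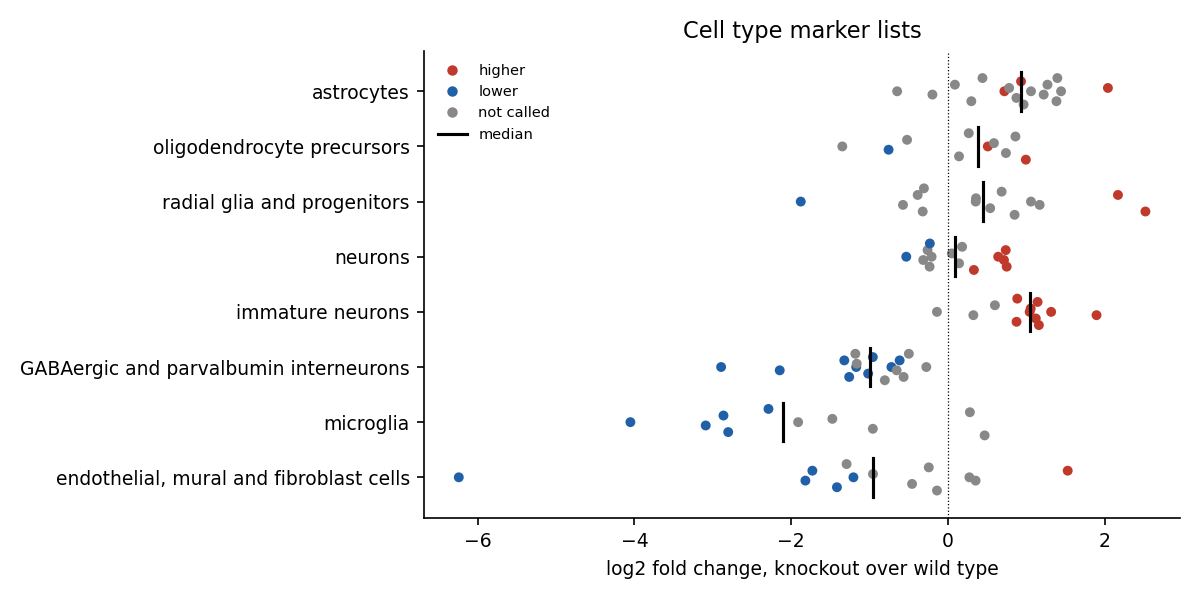
Log2 fold change, knockout over wild type (horizontal axis), of each tested marker gene by cell type, with red for called higher, blue for called lower, grey for not called and a black bar for the median of the list. All 16 interneuron markers lie below 0 (median -0.99), and the immature neuron markers have a median of 1.05.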

How the data were processed

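Polyadenylated RNA of 8 libraries (stranded TruSeq kit, per the labels' protocols) was compared by the authors with DESeq2 on mm10, per the submitters' processing notes, which name DESeq as well. The sources used here give no aligner, counting tool or annotation. Per the file headers, the authors' signal is each gene's mean normalized count (counts divided by size factors, averaged over libraries), with a log2 fold change and its SE on the log2 scale, a Wald statistic (score), a p-value and an adjusted p-value. Of 26229 genes, 18085 had an adjusted p. The others, at lower mean counts, or without a p (9 genes), were not counted as tested. The score equalled the fold change over its SE within 2.86e-07. No values per library were used, so depth per library, replicate checks and a count model could not be given. The number of replicates limits the precision. Each p-value sets a fold change against its SE, which reflects the spread between these libraries. Whether the libraries are separate embryos, litters or cultures is not stated.

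Signs were turned to knockout over wild type by H2bc21. Coordinates and union exon lengths are from GENCODE M21 (GRCm38, the assembly of mm10), matched by identifier for 26032 genes. The 10 genes and the 21 lists (13 of the matrix, 8 of cell markers) were chosen with earlier results of these data known. Cspg4, Erbb4, Lum and Dcn, among others, stand on both a matrix and a marker list, and Cd44 on a pair of matrix lists. Symbols missing from the table included 2 older names listed beside the current ones. Named genes were the 10 genes, H2bc21, Hapln2 and Hapln3, up to 5 called members of each list with the smallest adjusted p and, within 0.5 Mb of Vcan, called genes, of which there were 0. Genes given beyond that rule (Xylt1, B3gat2, B3gat3, Chst3, Ptprs, Ptn, Mdk, Has2, Has3, Tnxb, Tnn, Pdgfra, Cspg4, Sox10, Gpr17, Edil3, Xrcc4, Tmem167, Gm8546, Pvalb, Sparcl1, Adamts1, Adamts4, Adamts8, Adamts9, Adamts20 and Gm26633) were chosen after their values were seen. Some genes that the rule would name are not reported here by name. The recomputed adjustments were tested on simulated data. Python 3.11.15 with numpy 2.4.6, pandas 2.3.3, scipy 1.17.1, statsmodels 0.14.6 and matplotlib 3.10.9 was used. The alternatives were another null distribution, filter, adjustment, threshold and centring, a trend on exon length and GC, and a wider window.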

Additional observations from a re-analysis of the deposited data

How the results depend on the processing

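Of the 8 alternatives, 6 leave the fold changes as they are by construction. In the other 2, centring and removal of the trend with exon length and GC, the sign of each of the 10 genes stayed the same. The calls depended on the null distribution of the Wald statistic. When the statistic was referred to a t distribution (6 degrees of freedom), 0 of the 10 genes passed (5 had an unadjusted p under 0.05; the deposited DESeq2 test called 5), Vcan being at an adjusted p of 0.0645, and 0 of the 180 other matrix genes passed (67 unadjusted), where 1 gene of the whole table did. Against a null fitted to the table's own statistics (an SD of 1.96 in place of 1), 1 of the 10 passed, Vcan at an adjusted p of 0.00119, and 2 of the 180, against 74 of all genes. Vcan was called in 8 of the 9 settings, the deposited one included, with adjusted p from 1.05e-19 to 0.0645. Since Vcan was chosen by its rise in this comparison and several settings reuse the deposited p, nothing is read from that count. Ptprz1 also missed the threshold with the Benjamini-Yekutieli adjustment (adjusted p = 0.0868). Without genes of mean count under 100, Hapln4 could not be tested. Within 1 Mb of the lecticans, 37 neighbours were called in place of 20 within 0.5 Mb, as more genes lie in the wider window. The cause of the other changes was not tested. The median subtracted in centring was -0.01 on the log2 scale. No paired analysis was possible because the table holds no values per library, and for the same reason leaving out each replicate was not run.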
